A study of Danio rerio with 6 samples.

Results

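The genes described here are 10 members of the mitotic spindle machinery of the zebrafish, 8 mitotic kinesins (*kifc1*, *kif11*, *kif15*, *kif18a*, *kif2c*, *kif4*, *kif22* and *kif23*) and 2 Clasp genes (*clasp1a* and *clasp2*), out of 34965 genes in the deposited tables. They were chosen by name, as spindle motors and microtubule-binding partners, with earlier results of these data known but not by their measured levels. The libraries were made from polyadenylated RNA of dissected heads of AB strain embryos at 36 hpf (hours post fertilization). Of the 6 libraries, 3 came from siblings labelled wild type and 3 from homozygous *prpf31*-/- mutants of a line made with CRISPR/Cas9, and each library was a pool of 35 genotyped heads. *prpf31* encodes a constitutive component of the spliceosome, and the question asked here was whether its loss alters the RNA levels of spindle genes. The paper itself sequenced these libraries to look at gene expression and splicing as a whole. The study also reported altered splicing of *kifc1*, *clasp1a* and *clasp2*. By qPCR it reported lower mRNA of some mis-spliced mitosis and DNA repair genes, and its qPCR primers included *kifc1*. Those qPCR values are not compared here. The values here are gene totals, which sum over all transcripts of a gene and hold no information on which exons were included. A pooled head contains retina, brain, lens, skin, blood and muscle together, and mutants of this age may still hold maternally supplied Prpf31.

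Kinesins are motor proteins that use ATP to walk along microtubules or to take them apart at their ends. During mitosis some of them slide the microtubules of the spindle apart, some pull the poles together, some move chromosomes, and some build the midzone at which the daughter cells divide. Clasp proteins bind the growing ends of microtubules and keep them from shrinking, at kinetochores and elsewhere. The mitotic kinesins are used mainly by dividing cells, while Clasp proteins also act in cells that do not divide. In a bulk head sample, fewer cells of a type cannot be told apart from less RNA per cell.

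The libraries held between 58706617 and 66381302 counted fragments. *prpf31* itself had 38.7, 37.9 and 37.6 scaled CPM in siblings 1 to 3 and 22.4, 24.5 and 27.3 in mutants 1 to 3. Scaled CPM are a gene's counts relative to a library size that edgeR's TMM factor corrects. All mutants were thus below all siblings, as the labels predict, but 17.4% of all genes tested had this order. In the 15 alternative analyses described below, *prpf31* was called as different in 8. The call was lost when any 1 sibling or mutant 2 was left out, where 359 to 895 genes were called in all. It was also lost with library sizes alone and in some fits on FPKM, where 674 to 1036 were called. With all libraries 1890 genes were called. The log2 fold change of *prpf31* (mutant over sibling) ran from -0.76 to -0.56 over the 15. The order of this gene alone therefore does not establish the genotype of each library. Mutant 1 stood apart from the other libraries. Its TMM factor was 0.816, against 1.02 to 1.06 in the other 5, and its 10 most abundant genes took 14.5% of the counts, against 8.14% to 9.54%. All 8 skeletal muscle markers and all 8 skin markers were highest in mutant 1, with a summed muscle level of 72680 CPM against 26814 to 33304 CPM elsewhere, and a summed skin level of 32683 CPM against 14932 to 21793 CPM. As sums, the retinal progenitor and neuron markers were present in every library. However, all 13 retinal progenitor markers and 13 of 14 neuron markers were lowest in mutant 1. The summed retinal progenitor level was 185 CPM in mutant 1 against 393 to 498 CPM in the other libraries, and 0 of these markers were without counts throughout. The fold changes of the members, the list medians and the ratios are therefore also given without mutant 1, and the levels by library. The part of this tissue make-up in the results was not tested.

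None of the 10 genes was called as different between mutants and siblings in the test across all genes. In edgeR's quasi-likelihood test, with p-values adjusted by Benjamini-Hochberg over all genes, 0 of the 10 passed an adjusted p of 0.05, and 0 had an unadjusted p below 0.05. Over all 24277 genes tested, 7.79% were called, 3.83% as lower and 3.96% as higher in mutants. DESeq2 called 0 of the 10 as well, with 1 at an unadjusted p below 0.05, beside 12.9% of all genes. No member passed the study's rule of an adjusted p of 0.05 together with a 2-fold change, which 3.34% of all genes did. The median log2 fold change (mutant over sibling) of the 10 was -0.11, with 7 below 0 and 3 above, beside a median of 0.019 over all genes tested. The 95% intervals of the log2 fold changes ran from a lowest bound of -0.78, for *clasp2*, to a highest bound of 0.56, for *kifc1*, so a 2-fold change of any member lay outside its interval. Every member had between 1338 and 16129 counts in each library, and the spread between pools rather than the number of counts set these intervals.

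**Figure D1:**
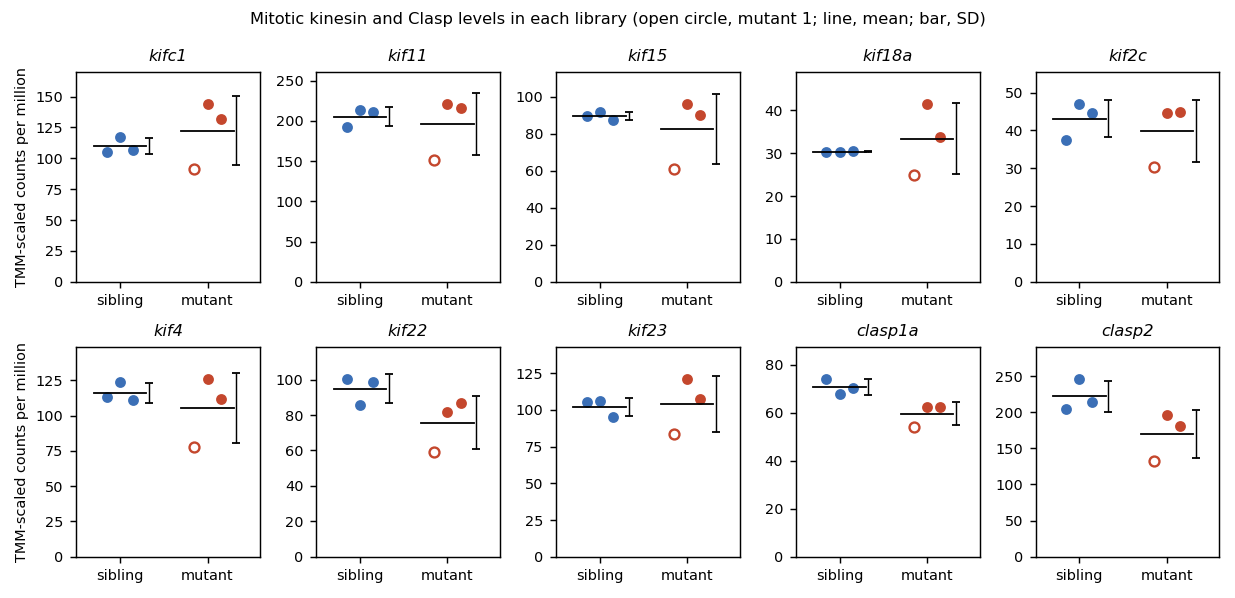
Scaled CPM of the 10 genes (vertical axes, from 0) in the 3 sibling libraries (blue) and the 3 mutant libraries (red, mutant 1 as an open circle), with the group mean as a line and the SD as a bar. Mutant 1 is the lowest of the 6 libraries for all 10 genes, and the groups do not overlap for *clasp1a* and *clasp2*.

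The first 3 genes set the balance of forces between the spindle poles. *kif11* (ENSDARG00000010948) encodes the plus-end-directed motor that slides antiparallel microtubules apart and so separates the poles. It had 192, 213 and 211 CPM in siblings 1 to 3 and 151, 221 and 216 CPM in mutants 1 to 3. Mutants 2 and 3 lay slightly above every sibling and mutant 1 below every sibling, and the log2 fold change was -0.068 ± 0.16 (SE, n = 3 and 3, adjusted p = 0.837).

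*kif15* (ENSDARG00000012073) encodes a second plus-end-directed motor, known from mammalian cells to help hold the poles apart when Kif11 activity is low. Its levels were 89.5, 91.8 and 87.1 CPM in the siblings and 60.9, 96.0 and 90.2 CPM in the mutants. The siblings were within a narrow range, mutants 2 and 3 lay in or above it, and mutant 1 was far below it (log2 fold change -0.12 ± 0.17 SE, adjusted p = 0.718).

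*kifc1* (ENSDARG00000001558) encodes a minus-end-directed motor that crosslinks microtubules, focuses them at the poles and pulls against Kif11. Its levels were 105, 117 and 107 CPM in siblings and 91.3, 144 and 132 CPM in mutants. Here mutants 2 and 3 were both clearly above the 3 siblings, while mutant 1 was below all of them, and with all libraries the log2 fold change of 0.15 ± 0.17 (SE) was not called (adjusted p = 0.636). Without mutant 1 *kifc1* was called higher, with a log2 fold change of 0.32 (95% interval 0.12 to 0.52, adjusted p = 0.0432 by edgeR's quasi-likelihood test), in a comparison of 2 mutants with 3 siblings in which 16.4% of 24821 genes were called, 8.22% as higher. Without mutant 2 the change of *kifc1* was 0.019 (adjusted p = 0.964), so its size rested on which mutant was included. It was the only member called in any of the 15 alternative analyses, over which its adjusted p ran from 0.0432 to 0.997.

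A pair of members shorten microtubules or limit their length. *kif18a* (ENSDARG00000008022) encodes a motor that walks to the plus ends at kinetochores and dampens chromosome movements. It was the gene with the least spread among siblings, with 30.3, 30.3 and 30.6 CPM, and it had 24.9, 41.5 and 33.8 CPM in the mutants. Mutants 2 and 3 were above the siblings and mutant 1 below them, so the mutant SD of 8.31 CPM far exceeded the sibling SD of 0.202 CPM (log2 fold change 0.14 ± 0.18 SE, adjusted p = 0.685). Without mutant 1 the change was 0.30 (95% interval 0.056 to 0.54), which was not called (adjusted p = 0.0953).

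*kif2c* (ENSDARG00000076228) encodes a kinesin that does not walk but removes tubulin from microtubule ends, and is known for correcting wrong attachments of chromosomes. It had 37.6, 47.0 and 44.7 CPM in siblings and 30.4, 44.5 and 44.8 CPM in mutants. Apart from mutant 1, all values lay between 37.6 and 47.0 CPM, with the lowest of them in a sibling (log2 fold change -0.11 ± 0.17 SE, adjusted p = 0.744).

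Chromosome-bound and midzone motors formed the next set. *kif4* (ENSDARG00000005462, named after its human counterpart KIF4A in the gene table) encodes a chromokinesin that binds chromosome arms and acts at the midzone. It had 113, 124 and 111 CPM in siblings and 77.6, 126 and 112 CPM in mutants, so mutants 2 and 3 were within or just above the sibling range and mutant 1 was below it (log2 fold change -0.15 ± 0.18 SE, adjusted p = 0.666).

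*kif22* (ENSDARG00000102624) encodes the other chromokinesin, which pushes chromosome arms away from the poles. Its levels were 100.4, 85.6 and 98.8 CPM in siblings and 58.9, 81.7 and 86.6 CPM in mutants. It was the only kinesin of the 8 that was lower in the mutant than in the sibling of the same replicate number for all 3 numbers, a pattern found in 27.1% of all genes. The groups nevertheless overlapped, since mutant 3 was above sibling 2, and the log2 fold change of -0.33 ± 0.16 (SE) was not called (adjusted p = 0.271).

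*kif23* (ENSDARG00000014943) encodes the motor subunit of centralspindlin, which bundles midzone microtubules and is needed for the daughter cells to separate. It had 105, 106 and 94.9 CPM in siblings and 83.4, 121 and 107 CPM in mutants. The value nearest to no change among the 10 genes was that of *kif23*, with a log2 fold change of 0.027 ± 0.15 (SE, adjusted p = 0.935), since mutants 2 and 3 were above every sibling and mutant 1 below. Without mutant 1 it was 0.15 (adjusted p = 0.304).

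Both Clasp genes had lower levels in all 3 mutants than in any sibling. *clasp1a* (ENSDARG00000010280) had 74.2, 67.7 and 70.2 CPM in siblings and 54.2, 62.5 and 62.5 CPM in mutants. *clasp2* (ENSDARG00000020345) had 205, 246 and 214 CPM in siblings and 132, 196 and 181 CPM in mutants. Their groups did not overlap, which was the case for 2 of the 10 members and 0 of the 8 kinesins. Over all genes tested, 32.3% had groups without overlap and 17.4% had all mutants below all siblings, so 2 of 10 is near the background.

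The log2 fold changes of the Clasp genes were -0.24 ± 0.11 (SE, 95% interval -0.50 to 0.012, adjusted p = 0.225) for *clasp1a* and -0.39 ± 0.17 (95% interval -0.78 to 0.0060, adjusted p = 0.212) for *clasp2*, and neither was called. Both stayed below 0 in all 15 alternative analyses, as did *kif22*. Without mutant 1, edgeR's quasi-likelihood test gave -0.19 for *clasp1a* (95% interval -0.37 to -0.0050, adjusted p = 0.152). For *clasp2* it gave -0.24 (95% interval -0.48 to -0.012, adjusted p = 0.143). Neither was called there. The level of *clasp1a* in mutant 1 was 86.7% of the mean of mutants 2 and 3, against 69.9% for *clasp2*, so the smaller change of *clasp1a* rested less on that library. A reference gene list of a later assembly (GRCz12tu) places another gene over each of *clasp1a*, *clasp2*, *kif15*, *kif18a* and *kif22*. The use of strand in counting was not stated, and the paper names the intersection-strict mode of HTSeq. Reads from these overlaps may therefore be included in the counts of these members or left out of them.

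Mutant 1 was the lowest of the 6 libraries for 10 of 10 members, beside 30.3% of all genes tested. In the 8 kinesins its level was 65.3% to 73.1% of the mean of mutants 2 and 3, beside a median of 96.4% over all genes. The 8 kinesins summed to 773, 815 and 786 CPM in siblings 1 to 3 and to 579, 876 and 821 CPM in mutants 1 to 3. Mutants 2 and 3 were thus both above every sibling and mutant 1 below every sibling. The same order held for 4 of the 8 kinesins singly, namely *kifc1*, *kif11*, *kif18a* and *kif23*. The sum of the Clasp genes ran differently, with 279.6, 314 and 284 CPM in siblings and 186, 259 and 244 CPM in mutants, so that all 3 mutants were lower. Beside these, the 20 markers of cycling cells summed to 3977 to 4187 CPM in siblings, 2768 CPM in mutant 1 and 3787 to 3920 CPM in mutants 2 and 3.

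Leaving out mutant 1 moved the median log2 fold change of the 8 kinesins from -0.089 to 0.063, beside a median of -0.012 over all genes in that comparison. Of the 8, 7 were then above 0, and *kif11* (0.079), *kif15* (0.048), *kif2c* (0.042) and *kif4* (0.023) had turned from below to above. *kif22* stayed below 0 at -0.18 (95% interval -0.40 to 0.035, adjusted p = 0.234). The direction of *kif11*, *kif15*, *kif2c* and *kif4* in the full comparison therefore rested on a single library. *kifc1*, *kif18a*, *kif22* and *kif23* kept their direction without mutant 1.

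**Figure D2:**
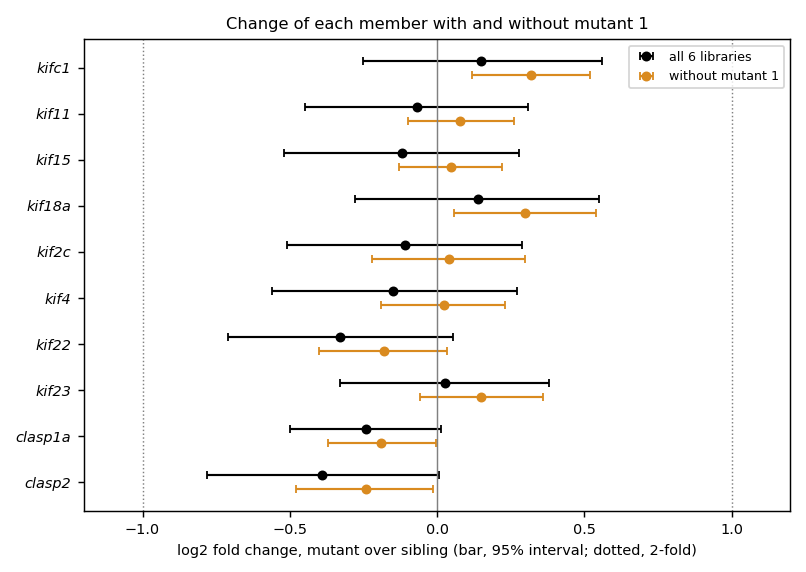
Log2 fold change (mutant over sibling) of each gene with its 95% interval, from all 6 libraries (black) and without mutant 1 (orange), with 2-fold changes as dotted lines. Every point moves to the right without mutant 1, *kifc1* reaches 0.32, and *kif22* and the Clasp genes stay below 0.

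**Figure D3:**
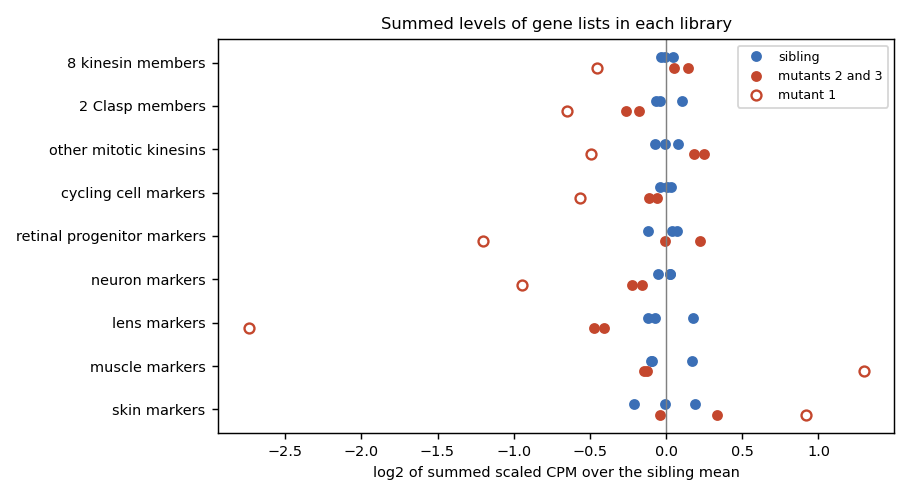
Summed scaled CPM of each gene list in each library, as log2 over the sibling mean, for siblings (blue), mutants 2 and 3 (red) and mutant 1 (open circle). Mutant 1 is lowest for the kinesins, the Clasp genes, cycling cell, retinal progenitor, neuron and lens lists and highest for muscle (72680 CPM) and skin (32683 CPM).

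Ratios between pairs of genes within a library do not depend on how the libraries were scaled. FPKM (counted fragments scaled to library total and gene length) were used, and 5 ratios were tested with a 2-sided exact permutation test, for which 3 against 3 libraries cannot give a p below 0.1. The ratio of *kifc1* to *kif11*, the inward over the outward motor, was 0.620, 0.621 and 0.574 in siblings and 0.681, 0.739 and 0.688 in mutants. All 3 mutants, mutant 1 included, were above all 3 siblings, and the mean ratio was 0.605 ± 0.0267 (SD) among the siblings and 0.703 ± 0.0314 (SD) among the mutants, with 3 libraries each and a log2 difference of 0.22. This gave the smallest possible exact p of 0.1 (adjusted p = 0.5 over the 5 ratios), so it was not called. The log2 difference was 0.24 without mutant 1. Of all genes tested, 26.2% had a ratio to *kif11* without overlap between the groups and 14.5% had all mutants above all siblings.

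The other 4 ratios overlapped between the groups. The ratio of *kif15* to *kif11* was 0.445 ± 0.0282 (SD, n = 3) in siblings and 0.426 ± 0.0167 in mutants (exact permutation p = 0.5). *kif23* to *racgap1*, its partner subunit in centralspindlin, was 1.59 ± 0.160 and 1.69 ± 0.0981 (exact permutation p = 0.400, n = 3 and 3). The ratio of *kif18a* to *kif2c* was 0.743 ± 0.0875 and 0.873 ± 0.0944 (exact permutation p = 0.200, n = 3 and 3). *clasp1a* to *clasp2* was 0.203 ± 0.0275 and 0.227 ± 0.0301 (exact permutation p = 0.5, n = 3 and 3). The adjusted p of each was 0.5. The mutant was above the sibling of the same number in all 3 cases for *kif18a* to *kif2c* and for *clasp1a* to *clasp2*, as for *kifc1* to *kif11*. Without mutant 1 the log2 differences of these 4 ratios, in the order given, were -0.033, 0.075, 0.24 and 0.055.

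**Figure D4:**
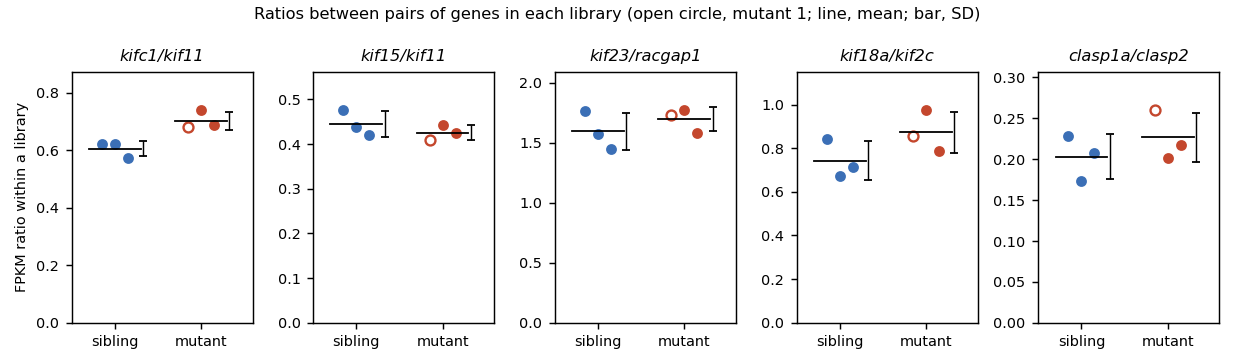
FPKM ratios of 5 pairs of genes within each library (vertical axes, from 0) in siblings (blue) and mutants (red, mutant 1 as an open circle), with the group mean as a line and the SD as a bar. The *kifc1* to *kif11* ratio is 0.574 to 0.621 in siblings and 0.681 to 0.739 in mutants, and the other ratios overlap.

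The members were also seen as shares of the summed FPKM of the 10 genes, a description added after the levels were known. The groups did not overlap for 4 members, beside 29.0% of all genes. *kifc1* took 11.4%, 11.9% and 11.4% in siblings and 13.7%, 14.6% and 14.1% in mutants. *clasp2* took 22.4%, 25.1% and 22.8% in siblings and 19.9%, 20.01% and 19.6% in mutants. The mutants were within 1 percentage point of each other in both cases, mutant 1 included.

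The mean share of *kif18a* was 2.93% ± 0.108 (SD, n = 3) among siblings and 3.54% ± 0.283 among mutants, and that of *kif23* was 7.48% ± 0.460 and 8.45% ± 0.380, also without overlap, while the shares of the other 6 members overlapped. Among all genes, 29.0% had groups without overlap when divided by the same sum. No test was made, and the shares of one library sum to the whole, so that a lower share of one gene raises the others.

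Per length, the members were at levels between 14.7 and 118 FPKM on average in siblings. The order of the sibling means was *clasp2* (118 ± 13.6 FPKM, SD, n = 3), *kif11* (96.3 ± 7.92), *kif22* (65.6 ± 4.94), *kifc1* (58.2 ± 4.45), *kif15* (42.7 ± 1.54), *kif23* (37.6 ± 2.06), *kif4* (26.3 ± 1.89), *clasp1a* (23.8 ± 0.589), *kif2c* (20.01 ± 2.72) and *kif18a* (14.7 ± 0.425). Among neighbours in this order, only *kif22* and *kifc1* had overlapping ranges. The lengths behind these values, recovered from the deposited tables, were 1970 bases for *clasp2* and 3114 bases for *clasp1a*. With the same counts, a longer length for *clasp2* would lower its FPKM.

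In mutants the ranges of all neighbours overlapped, since the FPKM of mutant 1 were low for every member. The mean of *kif11* (85.4 ± 26.2 FPKM, SD, n = 3) then stood beside that of *clasp2* (84.0 ± 25.7), and *kifc1* (60.4 ± 19.9) was above *kif22* (48.8 ± 15.0) in all 3 mutant libraries. In siblings *kif22* was above *kifc1* in 2 of 3 libraries. FPKM carry no TMM scaling, and the TMM factor of mutant 1 was 0.816.

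Genes with a profile over the 6 libraries like that of the 8 kinesins were listed by Pearson's r with the mean standardised profile. Among genes with a symbol, the nearest were *smarca5* (r = 0.997, n = 6 libraries), the zinc finger gene ZNF710 (0.996), *kif14* (0.996), the ubiquitin ligase gene DTX4 (0.995) and the splicing kinase gene PRP4K (0.994). *kif14*, a further mitotic kinesin, had 43.2, 46.0 and 43.1 CPM in siblings and 28.2, 49.7 and 46.1 CPM in mutants. *smarca5*, a chromatin remodelling ATPase, had 338, 367 and 359 CPM in siblings and 220.1, 429 and 371 CPM in mutants. Both were lowest in mutant 1, as was the kinesin profile itself (-1.74, against 0.012 to 0.87 in the other libraries). This 1 point therefore weighed heavily in each r, and 373 of 24267 genes, with or without a symbol, reached an r of 0.95. The r with this profile was 0.581 for *clasp1a* and 0.780 for *clasp2*.

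Other kinesins gave the background for the 8 members. Of 6 further mitotic kinesins (*kif14*, *kif20a*, *kif20ba*, *kif20bb*, *cenpe* and *kif2a*), edgeR's quasi-likelihood test called 0, with 0 at an unadjusted p below 0.05, and DESeq2 also called 0. Their median log2 fold change was -0.043, with values from -0.26 for *kif20bb* to 0.19 for *kif2a*, and all 6 were lowest in mutant 1. Without mutant 1 their median was 0.12 and *kif2a* was called higher (0.38, adjusted p = 0.0266), where 8.22% of all genes were called higher. *kif2a* encodes a microtubule depolymerase of the same family as Kif2c, and had 49.98, 49.0 and 55.8 CPM in siblings and 42.1, 68.6 and 66.1 CPM in mutants.

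The rest of the kinesin superfamily, which mainly carries cargo in non-dividing and dividing cells alike, held calls in both directions. Of 37 such genes and adaptors tested, 5 were called higher and 1 lower, beside 3.96% and 3.83% of all genes, with a median log2 fold change of -0.015. Without mutant 1 the counts were 6 and 3, in a fit that called 16.4% of all genes, 8.22% as higher, and the median was -0.022. *kif13ba*, a transport kinesin of the kinesin-3 family, had 85.0, 79.9 and 73.6 CPM in siblings and 248, 205 and 211 CPM in mutants. Every mutant was more than 2-fold above every sibling, and the log2 fold change of 1.48 ± 0.13 (SE) was called (adjusted p = 0.00117). It was called in all 15 alternative analyses, with values from 1.24 to 1.53.

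*kif16ba*, whose human counterpart moves early endosomes, was lower, with 22.8, 24.9 and 24.4 CPM in siblings and 12.2, 14.7 and 14.1 CPM in mutants (log2 fold change -0.81 ± 0.12 SE, adjusted p = 0.00938). It was called in 12 of 15 alternatives and lost the call without sibling 2, without sibling 3 and on unfiltered FPKM (highest adjusted p = 0.0792). Those fits called 359, 380 and 674 genes in all, against 1890 in edgeR's test on all libraries. The groups of *kif16ba* were well separated, with the highest mutant far below the lowest sibling. Over all genes tested, 17.4% had all mutants below all siblings.

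The other 4 calls were smaller or rested on few reads. KIFBP, an adaptor that in mammals binds kinesin motor domains and blocks them, had 19.5, 16.6 and 18.9 CPM in siblings and 26.4, 29.2 and 28.6 CPM in mutants (log2 fold change 0.62, adjusted p = 0.0195). The vesicle motors *kif1ca* (0.61, adjusted p = 0.0248) and KIF13B (0.61, adjusted p = 0.0483) were called higher by the same test, and so was *kif28* (2.37, adjusted p = 0.0495), which had only 6 to 11 counts in siblings and 23 to 87 in mutants. Of the 6 analyses that left out 1 library, each of these 4 genes was called in 1, that without mutant 1. That analysis called 4069 genes in all and the others 359 to 895, against 1890 with all libraries. The lowest value of the list was that of *kif9* (-0.95, adjusted p = 0.505), at under 1 CPM in every library. The 38 listed genes summed to 866 to 869.8 CPM in siblings and 978 to 1029 CPM in mutants, and without *kif13ba* the sums overlapped, at 785 to 792 and 730.1 to 818 CPM.

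**Figure D5:**
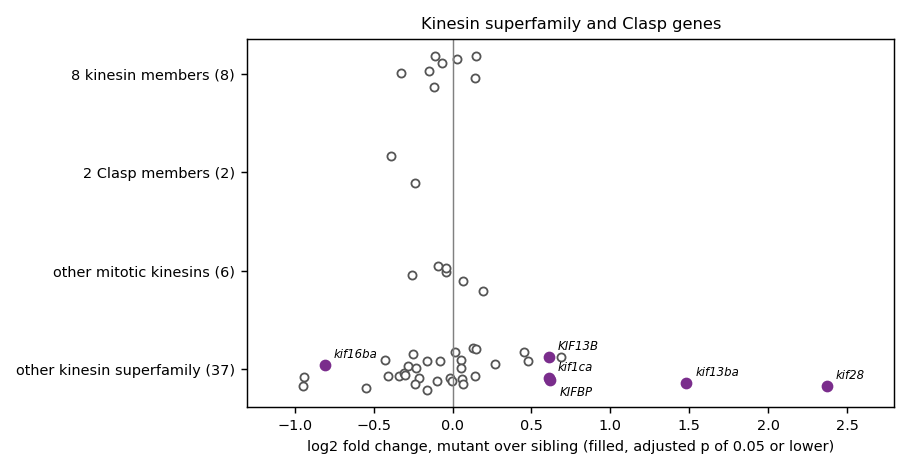
Log2 fold change (mutant over sibling) of the 8 kinesin members, the 2 Clasp genes, 6 other mitotic kinesins and 37 other kinesin superfamily genes, with genes called at an adjusted p of 0.05 filled and named and the vertical scatter within a set without meaning. All calls are in the last set, led by *kif28* at 2.37, which has few counts, and *kif13ba* at 1.48.

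Genes that work with the members at the spindle were taken as 4 lists. Of 24 spindle microtubule proteins 2 were called, near the 7.79% of all genes. MAPRE1, a copy of the plus-end tracking protein EB1, was higher, with 11.3, 12.3 and 12.5 CPM in siblings and 18.5, 20 and 21.0 CPM in mutants (log2 fold change 0.72, adjusted p = 0.0124), and *haus8*, a subunit of the augmin complex that branches spindle microtubules, was lower, with 15.7, 19.0 and 19.1 against 9.79, 12.8 and 12.1 CPM (-0.63, adjusted p = 0.0437). The median of the 24 was -0.17. When mutant 1 was left out, the median was 0.010, with 4 called higher and 3 lower, beside 16.4% of all genes. With 1 library left out at a time, MAPRE1 was called in 2 and *haus8* in 1 of the 6 analyses. Those analyses called 359 to 895 genes in all, and 4069 without mutant 1, against 1890 with all libraries. With the replicate number as a block, a fit in which 12.7% of all genes were called, 4 were called, adding PRC1, a midzone bundling protein to which Kif4 binds (0.60, adjusted p = 0.0291), and *slain2* (0.47, adjusted p = 0.0373), both of which were chosen for mention after their values were seen.

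Of 13 chromosomal passenger proteins and mitotic kinases edgeR's quasi-likelihood test called 0, with 2 at an unadjusted p below 0.05. DESeq2 called 1 as lower, beside 12.9% of all genes called. The values ran from -0.49 for *ttk*, a spindle checkpoint kinase, to 0.37 for *ccnb2*, a mitotic cyclin, with a median of -0.025. With the replicate number as a block, a fit that called 12.7% of all genes, 2 were called lower. They were *cdk1* (-0.45, adjusted p = 0.0357), the main mitotic kinase, chosen for mention after its value was seen, and *ttk* (-0.52, adjusted p = 0.0492). Without mutant 1 the median was 0.13, and 3 were called higher and 2 lower, in a fit that called 16.4% of all genes, 8.22% as higher. The higher ones, chosen for mention after their values were seen, were the mitotic cyclins *ccnb1* (0.47, adjusted p = 0.00570) and *ccnb2* (0.59, adjusted p = 0.0145) and the centrosomal kinase *nek2* (0.47, adjusted p = 0.0224). The lower ones were *cdk1* (-0.40, adjusted p = 0.0175) and *ttk* (-0.34, adjusted p = 0.0456).

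Of 20 markers of cycling cells, 3 were called lower and 0 higher, beside 3.83% and 3.96% of all genes, with a median log2 fold change of -0.32. Without mutant 1 the median was -0.17, with 4 called lower and 2 higher, in a fit that called 16.4% of all genes, 8.22% as higher. The 2 higher ones, chosen for mention after their values were seen, were the cyclin genes *ccnd1* (0.83, adjusted p = 7.89e-04) and *ccne2* (0.59, adjusted p = 0.00644). *top2a*, the DNA topoisomerase that untangles chromosomes, had 281, 307 and 292 CPM in siblings and 139, 198 and 175 CPM in mutants (-0.78, adjusted p = 0.0244). *ube2c*, a ubiquitin-conjugating enzyme of mitotic exit, changed by -0.62 (adjusted p = 0.0192) and *mcm5*, a subunit of the replicative helicase, by -0.47 (adjusted p = 0.0382). The 3 were lower in every mutant than in any sibling. In all, 9 of the 20 markers had this order, beside 17.4% of all genes tested. Without mutant 1 *top2a*, *ube2c* and *mcm5* were called with changes of -0.66, -0.61 and -0.45. With 1 library left out at a time, *top2a* and *ube2c* were called in 2 and *mcm5* in 1 of the 6 analyses. Those analyses called 359 to 895 genes in all, and 4069 without mutant 1, against 1890 with all libraries. The highest value of the list was that of a second MCM6 copy with under 1 CPM in every library (0.83, adjusted p = 0.368).

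Dynein and dynactin, the minus-end-directed motor and its activator that act at kinetochores and poles, were called in 1 of 16 genes, near the 7.79% of all genes. *dync1i2a*, an intermediate chain, had 101, 108 and 114 CPM in siblings and 82.0, 80.2 and 79.6 CPM in mutants (log2 fold change -0.42, adjusted p = 0.0488), and this call was lost in 12 of 15 alternatives, among them the replicate block (adjusted p = 0.0504) and 5 of the 6 analyses without 1 library. Those 5 analyses called 359 to 895 genes in all, against 1890 with all libraries. With the block, where 12.7% of all genes were called, the 1 gene called was *dync1li1*, a light intermediate chain (adjusted p = 0.0419). It was chosen for mention after its value was seen. The other values ran from -0.49 for *dync1i2b* to 0.33 for one of the DYNLL2 copies, with a median of -0.078 over the list and of -0.10 without mutant 1.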

How the data were processed

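RNA-seq was made from 3 sibling and 3 *prpf31* mutant pools of heads. Per the labels, HISAT2 (2.0.4) and the build GRCz11 were used for alignment, and the deposited counts are whole fragments per gene without normalization. The processing notes name HTSeq (0.9.1) and the methods also name featureCounts, and the annotation and strand setting are not given in the sources used here. The deposited FPKM were made by the authors from these counts and one length per gene, checked over 22043 genes (largest relative deviation 4.0e-08). Genome positions were not used here, apart from the list of genes that overlap the members in a later assembly (GRCz12tu).

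Members were matched by symbol, by the study's own pairs of symbol and identifier, or, for *kif4*, by the human name. *clasp1b* and *kif18b* were not analysed here. The members and lists were chosen with earlier results of these data known.

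Counts were tested with edgeR (4.0.16) in R (4.3.3), with filterByExpr, TMM factors and the quasi-likelihood test, adjusted by Benjamini-Hochberg over 24277 genes and called at 0.05. The scripts were tested on simulated data. Alternatives were DESeq2 (1.42.0), RLE factors, library sizes alone, other filters, limma (3.58.1) on log2(FPKM + 1) and log2(FPKM + 0.1), a replicate block, and leaving out each library. Ratios were tested with scipy (1.17.1). Named genes were the 10 members, from each other list the called genes (up to 6) and its highest and lowest change, the genes of the ratios, *prpf31*, and the 5 genes most like the kinesins. The last 5 were taken from genes with a symbol. The columns of other samples numbered 0.

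Libraries of the same replicate number were partly alike. Their deviations from the group means correlated at 0.342, 0.385 and 0.448, against -0.234 to -0.127 between libraries of different numbers. Deviations within a group cancel out, so the negative values follow in part from the positive ones. Whether the numbers mark pairs was not tested. The labels do not say what a number marks. Nothing says whether pools came from separate clutches, so p-values measure the spread between these pools.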

Additional observations from a re-analysis of the deposited data

How the results depend on the processing

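The count of 0 called members was the same in all alternatives except without mutant 1 (0 to 1 over the libraries left out), and 0 members passed the study's thresholds in any. With the replicate block, which called 12.7% of all genes, 0 members and 0 other mitotic kinesins were called. It called 9 other kinesin superfamily genes, 4 cycling cell markers and 1 dynein or dynactin gene (*dync1li1* in place of *dync1i2a*). Spindle proteins moved from 2 to 4 and mitotic kinases from 0 to 2. The blocked log2 fold changes of the members ran from -0.40 for *clasp2* (adjusted p = 0.0834) to 0.13 for *kifc1* (0.574), and the pairing changed the call of no member. The cause of each of the following changes was not tested. Without mutant 1 the changes of *kif11*, *kif15*, *kif2c* and *kif4* reversed to 0.079, 0.048, 0.042 and 0.023 and the median of the kinesins to 0.063. With 1 library left out, the ranges were 0.019 (without mutant 2) to 0.32 (without mutant 1) for *kifc1*, -0.16 to 0.079 for *kif11*, -0.24 to 0.048 for *kif15*, -0.20 to 0.042 for *kif2c*, -0.30 to 0.023 for *kif4*, -0.050 to 0.30 for *kif18a*, -0.10 to 0.15 for *kif23* and -0.18 to 0.063 for the median. Without mutant 2 *kif18a* reversed to -0.050 and *kif23* to -0.10, and without sibling 3 *kif23* to -0.026. With library sizes alone, which put the median of all genes at -0.11, *kif23* reversed to -0.079. On log2(FPKM + 1), with a median of all genes at -0.095, *kifc1* reversed to -0.0053, *kif18a* to -0.024 and *kif23* to -0.12, filtered or not, and on log2(FPKM + 0.1), with a median at -0.13, to -0.0064, -0.030 and -0.12. Calls in the other lists were fewer or more as follows. With DESeq2, which called 12.9% of all genes, 6 spindle proteins, 1 mitotic kinase and 3 dynein or dynactin genes were called. With library sizes alone, 919 of 24277 genes were called in all. Among these were 2 other superfamily genes, 0 spindle proteins, 1 cycling marker and 0 dynein or dynactin genes. With RLE factors or no filter, 0 dynein or dynactin genes were called, beside 1870 of 24277 and 1740 of 31067 genes in all. On log2(FPKM + 1), with 1162 of 20705 genes called in all, 2 superfamily genes and 0 spindle or dynein genes were called. On log2(FPKM + 0.1), with 1036 of 20705, these counts were the same, with 1 cycling marker. Unfiltered log2(FPKM + 1), with 674 of 31067, gave 1 superfamily gene, 0 cycling markers and 0 spindle or dynein genes. Leaving out 1 library at a time gave 0 to 1 other mitotic kinesins, 1 to 9 superfamily genes and 0 to 7 spindle proteins. It also gave 0 to 5 mitotic kinases, 0 to 6 cycling markers and 0 to 5 dynein or dynactin genes. The highest count came each time without mutant 1, where 4069 genes were called in all, against 1890 with all libraries. Without any other library, 359 to 895 genes were called in all. With 1 library left out, the log2 difference ran from 0.18 to 0.24 for *kifc1* to *kif11*, -0.10 to -0.011 for *kif15* to *kif11*, 0.024 to 0.17 for *kif23* to *racgap1*, 0.15 to 0.32 for *kif18a* to *kif2c* and 0.050 to 0.25 for *clasp1a* to *clasp2*. With 3 pools a group and no block, each member's fold change in edgeR's test had its own 95% interval. The lowest bound was 0.582 (*clasp2*) and the highest 1.48 (*kifc1*), and every interval of that fit included no change. With the block, the interval of *clasp2* (0.614 to 0.933) did not include it, while those of the other members did. Without mutant 1, no change lay outside the intervals of *kifc1* (1.09 to 1.43), *kif18a* (1.04 to 1.46), *clasp1a* (0.776 to 0.997) and *clasp2* (0.719 to 0.992). The lack of a call does not show that a level was the same in both groups.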
